A study of Caenorhabditis elegans with 35 samples.

Results

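RNA-seq libraries of eak-7;akt-1 dpy-21 larvae were compared directly with libraries of daf-16;eak-7;akt-1 larvae, and the comparison took 10 of the 35 libraries of the series, 5 of each strain. These 10 were chosen by genotype, and the libraries of the shared parent strain eak-7;akt-1 entered the filter for tested loci but not the test. The study profiled 7 genotypes of the nematode Caenorhabditis elegans with 5 experimental replicates each. It asked how mutations that prevent dauer arrest, a stress-resistant larval diapause, alter gene expression. Both strains carried eak-7 and akt-1 mutations, which together drive larvae into dauer arrest, and each carried 1 further mutation that suppresses the arrest, in dpy-21 for eak-7;akt-1 dpy-21 (called the dpy-21 strain below) and in daf-16 for daf-16;eak-7;akt-1 (the daf-16 strain). The methods of the study give mu86 as the daf-16 allele, and the labels give no allele for dpy-21, eak-7 or akt-1. The genotypes outside the test were eak-7;akt-1;daf-12, set-4(n4600);eak-7;akt-1, the allele set-4(dp268) in the same background, the parent eak-7;akt-1 and wild type. Eggs from more than 200 adults were laid over 6 h at 20°C and kept at 25°C for 24 h, and whole larvae at the L2 or L2D (predauer) stage were harvested. Because RNA came from whole larvae, fewer cells of a type and less RNA per cell cannot be told apart at any locus described here.

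DAF-16 is the worm FoxO transcription factor, which insulin-like signalling through AKT-1 keeps out of the nucleus and which drives dauer arrest when that signalling is low. DPY-21 belongs to the dosage compensation complex, which binds both X chromosomes of hermaphrodites and lowers their transcription, so that X-linked output is matched to that of males with a single X. The comparison sets 2 ways of losing the arrest against each other. As the study reports that DPY-21 promotes DAF-16 activity, the dpy-21 strain keeps the daf-16 gene but not necessarily its full activity.

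The authors deposited scaled counts, in which the fragments of a locus are divided by the size factor of its library. The libraries held between 34193 and 88068 fragments in the dpy-21 strain and between 48654 and 69465 in the daf-16 strain. A fragment was seen at 8710 of 37555 loci, and 1101 loci were tested, those that reached 5 scaled counts in 5 or more of the 35 libraries. The 55 loci that reached that level in exactly 5 libraries had a median of 2.52 scaled counts over the 10 libraries compared here, and the 75 loci that reached it in exactly 4 libraries and were left out had a median of 2.61. Of the tested loci, 127 were X-linked, 872 autosomal, 3 mitochondrial and 99 without a chromosome, and 517 carried more than 1 gene name, whose fragments cannot be told apart. The genotypes could not be checked, since dpy-21 was listed at 0 in every library and daf-16, akt-1 and the eak-7 locus had at most 1 fragment in any library. Over all libraries the leading principal component carried 40.2% of the variance, and on it 9 libraries stood apart from the other 26, among them replicates 6 and 9 of the dpy-21 strain and replicate 10 of the daf-16 strain. In those 9 libraries 141 tested loci were lower by more than 2 log2 units. None of the 141 was among the loci called below, and 24 of them were X-linked. A drop of that size in some libraries of a strain widens the spread within it, so such loci could hardly pass the test. Their absence therefore does not measure the effect of the library groups on the calls. The largest shift of a called locus between the library groups was 0.577 log2 units, a value under the same limit. Defining tissue markers were sparse, and myo-3 and pat-10 of body wall muscle, myo-2 of pharynx, ges-1 and cpr-1 of intestine, egl-21 of neurons and mlt-10 of hypodermis had no fragment in the 10 libraries.

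Between the strains without dpy-21 and without daf-16, 40 of the 1101 tested loci differed, and the 8 X-linked loci among them were all higher in the dpy-21 strain. Called loci on the autosomes were mostly lower in that strain, with 16 lower and 5 higher. The lower loci included genes for a fatty acid- and retinol-binding protein (far-2), a methionine sulfoxide reductase (msra-1), a metallothionein (mtl-2) and fungus-induced peptides (fip-1 and fipr-10). The autosomal split moved with the scaling, to 15 lower and 10 higher with median-of-ratios rescaling and 14 lower and 8 higher with TMM rescaling. In limma with Benjamini-Hochberg adjustment over all tested loci, the 40 loci (3.63%) differed by at least 1.5-fold at an adjusted p-value below 0.05. Of these, 21 (1.91%) were higher and 19 (1.73%) were lower in the dpy-21 strain, and 191 tested loci had an unadjusted p below 0.05. The libraries of the strains did not overlap at 36 of the 40 loci, and they did not overlap at 70 (6.36%) of all tested loci. At each locus without overlap an exact permutation test gave a two-sided p of 0.00794, the smallest that 5 against 5 libraries allow. That p-value follows from the lack of overlap itself and adds nothing to it. Log2 fold changes of called loci ranged in size from 0.70 to 2.98 on the log2(scaled count + 1) scale, which understates the change of loci with few counts. At 6 of the 40 called loci 1 strain had at most 3 fragments in every library.

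The balance of higher and lower loci moved with the scaling, and the number of calls moved with single libraries. The scaled totals were 41893 to 58956 in the dpy-21 strain and 51170 to 68311 in the daf-16 strain, and the median log2 fold change over all tested loci was -0.17. The part of these totals in the result was not tested beyond the rescaling given here. A median-of-ratios rescaling moved that median to -0.03 and gave 36 higher and 16 lower loci, and a TMM rescaling gave 33 higher and 15 lower. All 40 called loci kept their direction under both. Their changes were at least 0.70 log2 units in size, so shifts this small could not have turned them. Without replicates 6 to 10 of the dpy-21 strain in turn, 38, 25, 11, 23 and 24 loci were called. Without replicates 6 to 10 of the daf-16 strain in turn, 47, 18, 17, 16 and 31 loci were called. The 3 dpy-21 and 4 daf-16 libraries in the larger group on the first principal component gave 9 higher and 14 lower loci, or 24 higher and 32 lower when the spread was estimated over all 26 libraries of that group. Of the 23 named loci 9 kept their call in the fit of those 7 libraries and 15 in the fit of all 26.

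X-linked loci lay higher in the dpy-21 strain as a group. The median log2 fold change was 0.42 over the 127 X-linked loci and -0.24 over the 872 autosomal loci. It was above 0 at 89 X-linked loci (70.1%) and at 28.9% of autosomal loci. Of the X-linked loci 8 (6.30%) were called, beside 3.63% of all tested loci. At an unadjusted p below 0.05, 32 X-linked loci were higher and 4 lower, while 21 autosomal loci were higher and 107 lower. The libraries did not overlap at 15 of the 127 X-linked loci, beside 70 (6.36%) of all tested loci. At all 15 X-linked loci the dpy-21 libraries were the higher ones. Medians of the single autosomes were -0.20 on chromosome I, -0.19 on II, -0.26 on III, -0.29 on IV and -0.22 on V. With median-of-ratios rescaling 96 of the 127 X-linked and 360 of the 872 autosomal loci were above 0. The medians were then 0.57 for X-linked and -0.08 for autosomal loci, and 16 X-linked loci were called, all higher. Within the larger library group they were 0.50 and -0.21, and 5 X-linked loci were called, all higher. Without replicates 6 to 10 of the dpy-21 strain in turn, 5, 5, 2, 4 and 3 X-linked loci were called, 1 of them lower (in the fit without replicate 6), and without replicates 6 to 10 of the daf-16 strain in turn, 6, 3, 3, 3 and 4 were, all higher.

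**Figure D1:**
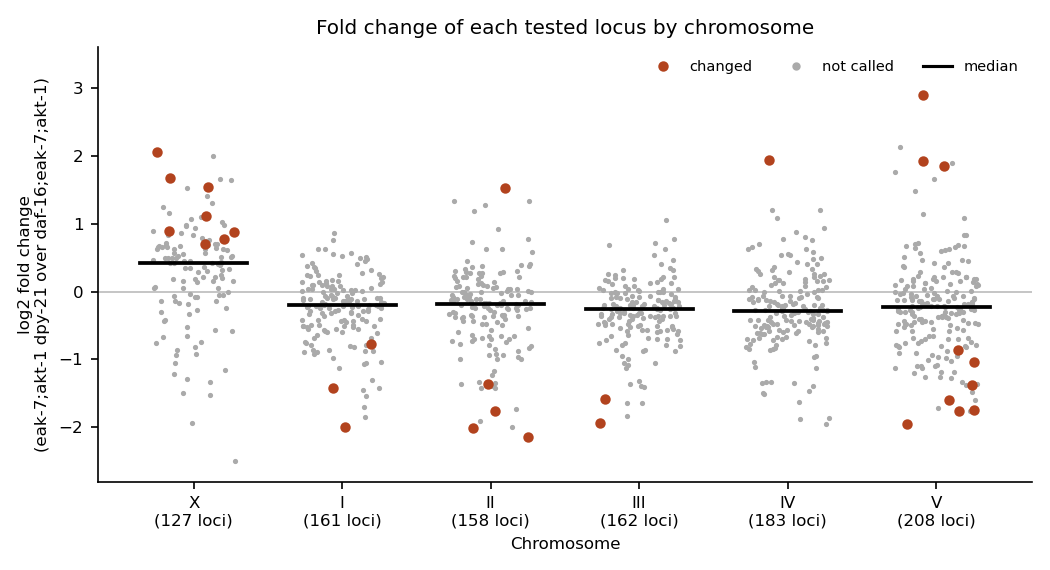
Log2 fold change of each tested locus placed on a chromosome (vertical axis, eak-7;akt-1 dpy-21 over daf-16;eak-7;akt-1) by chromosome (horizontal axis), with black bars for medians and large points for changed loci. The X-linked median stands at 0.42 with all 8 changed X-linked loci above 0, and the autosomal medians lie between -0.29 and -0.19.

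The X-linked median was above the autosomal median at each level of expression. Loci with a mean under 10 scaled counts had medians of 0.49 on the X (77 loci) and -0.18 on autosomes (530 loci). Loci with a mean of 50 or more had medians of 0.21 on the X (17 loci) and -0.30 on autosomes (113 loci), and 11 of these 17 X-linked loci and 8 of the 113 autosomal loci were above 0. Between these levels the X-linked median exceeded the autosomal median by 0.50 for means of 10 to 20 and by 0.66 for means of 20 to 50. The values by level were taken at the deposited scaling only. Median-of-ratios rescaling moved the median of all autosomal loci from -0.24 to -0.08, so the counts above 0 depend on the scaling.

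In each library the mean of log2(scaled count + 1) over autosomal loci was subtracted from the mean over X-linked loci. This X-linked minus autosomal level was 0.05, 0.28, 0.41, 0.02 and 0.35 in replicates 6 to 10 of the dpy-21 strain. In replicates 6 to 10 of the daf-16 strain it was -0.17, -0.36, -0.19, -0.32 and -0.53. All 5 dpy-21 libraries stood above all 5 daf-16 libraries, and the lowest pair in the dpy-21 strain were the libraries of the smaller group on the first principal component. The level averaged 0.22 ± 0.18 in the dpy-21 strain and -0.31 ± 0.15 in the daf-16 strain (SD, n = 5 each), a difference of 0.54, or 1.45-fold, and 0.61 within the larger library group. It averaged -0.28 ± 0.16 in eak-7;akt-1;daf-12, -0.34 ± 0.08 in the eak-7;akt-1 parent and -0.41 ± 0.13 in wild type, close to the daf-16 strain and below every dpy-21 library. Both set-4 strains had means between, at -0.08 ± 0.17 for set-4(n4600) and -0.01 ± 0.11 for set-4(dp268). Over loci with a mean of at least 20 scaled counts the difference was 0.54, but replicates 6 and 9 of the dpy-21 strain, at -0.54 and -0.49, then lay within or just above the daf-16 range of -0.95 to -0.50.

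**Figure D2:**
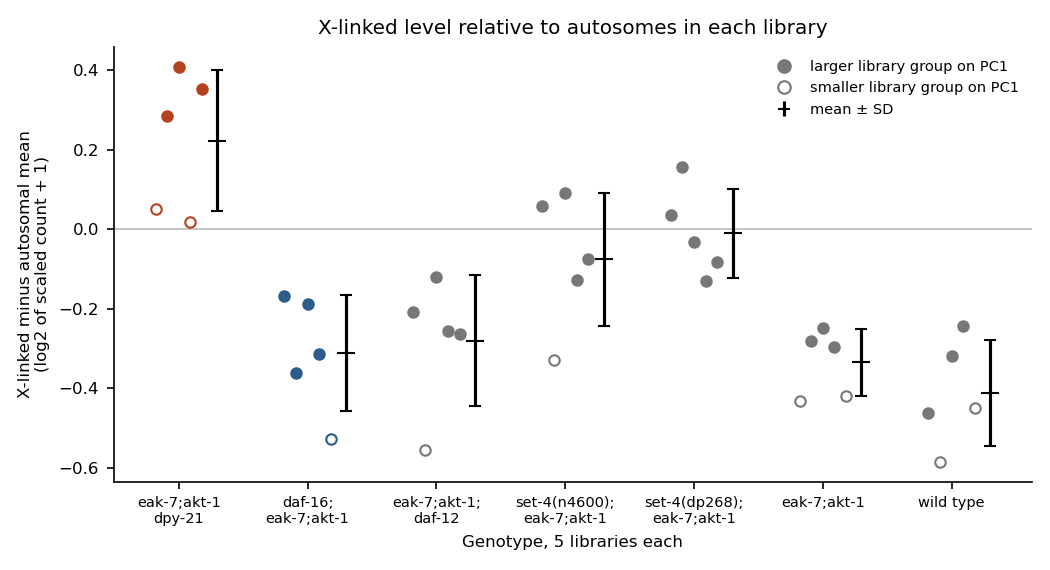
Mean log2(scaled count + 1) of X-linked loci minus that of autosomal loci (vertical axis) in each library of 7 genotypes (horizontal axis), with open points for libraries of the smaller group on the first principal component and bars for the mean and SD. The 5 eak-7;akt-1 dpy-21 libraries lie between 0.02 and 0.41, and the 5 daf-16;eak-7;akt-1 libraries lie between -0.53 and -0.17.

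Among the 8 called X-linked loci the smallest p-value belonged to T23F2.3/T23F2.4, a pair of protein-coding genes at X:5511997-5512327 and X:5514727-5515084 in the WBcel235 annotation. It had 67.1, 64.9, 80.3, 74.7 and 66.9 scaled counts in the dpy-21 strain and 30.9, 31.8, 19.7, 20.7 and 18.5 in the daf-16 strain. The lowest dpy-21 library was above the highest daf-16 library by more than 30 scaled counts. The log2 fold change was 1.54 (SE 0.19, adjusted p = 0.00351 in limma), and the call held with each of the 10 libraries left out.

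C35C5.8/C35C5.9, also protein-coding and at X:11533593-11536574 and X:11536568-11537124, had the largest rise of the X-linked loci. Its values were 59.4, 47.6, 78.7, 49.0 and 60.2 scaled counts in the dpy-21 strain against 28.1, 20.1, 12.8, 9.89 and 5.28 in the daf-16 strain. The groups did not overlap, and replicate 6 was the highest daf-16 library. In limma the log2 fold change was 2.05 (SE 0.37, adjusted p = 0.0165), and the adjusted p was 0.0517 without replicate 8 of the dpy-21 strain, the 1 library whose removal ended the call.

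The locus of unc-18 (X:7682896-7686037), which encodes a Sec1/Munc18 protein needed for synaptic vesicle release, and of the neighbouring tRNA gene rte-3 had 78.1, 69.3, 82.8, 91.9 and 76.3 scaled counts in the dpy-21 strain. It had 46.3, 45.6, 40.2, 33.3 and 47.5 in the daf-16 strain, all below the lowest dpy-21 library. The log2 fold change was 0.89 (SE 0.15, limma adjusted p = 0.014), and the call held with each library left out but not in the fit of all 35 libraries (adjusted p = 0.319). C18A11.2 (X:8067568-8068097) reached higher levels, with 142, 100.4, 107, 129.9 and 116 scaled counts in the dpy-21 strain against 96.9, 64.7, 59.8, 54.8 and 51.9 in the daf-16 strain. Replicate 6 was the highest library of each strain, and the groups came within 4 scaled counts of each other without overlapping. Its log2 fold change was 0.88 (SE 0.19, limma adjusted p = 0.0259), and with 1 library left out the call held only without replicate 6 of the daf-16 strain or replicate 7 of the dpy-21 strain, and the adjusted p reached 0.0705 without another.

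The locus shared by gpd-2 and gpd-3, near-identical genes of the glycolytic enzyme GAPDH, also holds mai-1, of the ATP synthase inhibitor family, and spc-1, the alpha spectrin gene. It lies at X:3112091-3127079 and had 51.1 to 78.1 scaled counts in the dpy-21 strain and 37.9 to 47.5 in the daf-16 strain. The ranges did not overlap, but which of the 4 genes carried the difference cannot be told. In limma the log2 fold change was 0.70 (SE 0.16, adjusted p = 0.0342). trap-2 (X:767023-768069), for a subunit of the translocon-associated protein complex of the endoplasmic reticulum, ranged from 8.66 to 13.5 in the dpy-21 strain and from 3.42 to 7.02 in the daf-16 strain (log2 fold change 1.11, SE 0.26, limma adjusted p = 0.0424). The locus of inx-2 (X:11295007-11296733), an innexin of gap junctions, with F38B2.3 and F38B2.4, ranged from 25.97 to 31.5 in the dpy-21 strain against 12.7 to 22.9 in the daf-16 strain (log2 fold change 0.77, SE 0.19, limma adjusted p = 0.0493). Each of these 3 loci kept its call in 1 of the 10 fits that left out a library. That fit was the one without replicate 7 of the dpy-21 strain for the gpd-2 locus, without replicate 6 of the daf-16 strain for trap-2 and without replicate 10 of the daf-16 strain for the inx-2 locus, and elsewhere the adjusted p reached 0.0862, 0.107 and 0.110 for the gpd-2 locus, trap-2 and the inx-2 locus. The remaining X-linked call, C15H9.9/Y72A10A.1, named after its values were seen, had means of 7.39 scaled counts in the dpy-21 strain and 1.82 in the daf-16 strain (limma adjusted p = 0.0493). It had at most 4 fragments in each daf-16 library, and it too kept its call in only 1 of the 10 fits.

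The X-linked antimicrobial saposin-like gene spp-14, in a locus with K09F5.6, was the most abundant X-linked locus, with means of 743 scaled counts in the dpy-21 strain and 554 in the daf-16 strain. Its limma adjusted p was 0.0494, but the fold of 1.34 was under 1.5 and the libraries overlapped. An abundant X-linked locus also lay the other way without passing the test, that of calu-1, a calumenin gene, with M03F4.6, M03F4.13 and ZC8.6. Its means were 69.2 scaled counts in the dpy-21 strain and 164 in the daf-16 strain, and the libraries overlapped.

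Away from the X, the largest rise was that of T26H5.9/srh-239 on chromosome V (V:15444916-15445420 for T26H5.9 and V:15445737-15447381 for srh-239), where srh-239 is named for a class of chemoreceptors. Its values were 92.5, 77.9, 77.0, 109 and 74.98 scaled counts in the dpy-21 strain against 19.7, 7.42, 5.13, 16.2 and 10.6 in the daf-16 strain. The lowest dpy-21 library stood more than 50 scaled counts above the highest daf-16 library. The log2 fold change was 2.89 (SE 0.32, limma adjusted p = 0.00216), the smallest adjusted p of the comparison, and the call held with each library left out.

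A cluster on chromosome V that holds sel-9 (V:8301490-8302580), for a cargo receptor of the p24 family in the secretory pathway, together with W02D7.4, W02D7.5, W02D7.6 and W02D7.11, was higher as well. It had 71.5, 31.2, 32.8, 44.1 and 30.1 scaled counts in the dpy-21 strain and 8.42, 11.7, 13.7, 9.89 and 8.80 in the daf-16 strain. Replicate 6 of the dpy-21 strain was highest, and the remaining 4 were still more than 16 scaled counts above all daf-16 libraries. In limma the log2 fold change was 1.84 (SE 0.26, adjusted p = 0.00673), and the call held with each library left out. The other 3 higher autosomal loci, sru-40, Y105C5A.13 and F45D11.14, were named after their values were seen. They had means of only 2.72 to 7.23 scaled counts in the dpy-21 strain, with the daf-16 strain at or below 3 fragments in each library. Against that floor the fold was at least 2.36 for Y105C5A.13. It was only 1.41 for sru-40 and 0.89 for F45D11.14, under the 1.5-fold threshold.

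**Figure D3:**
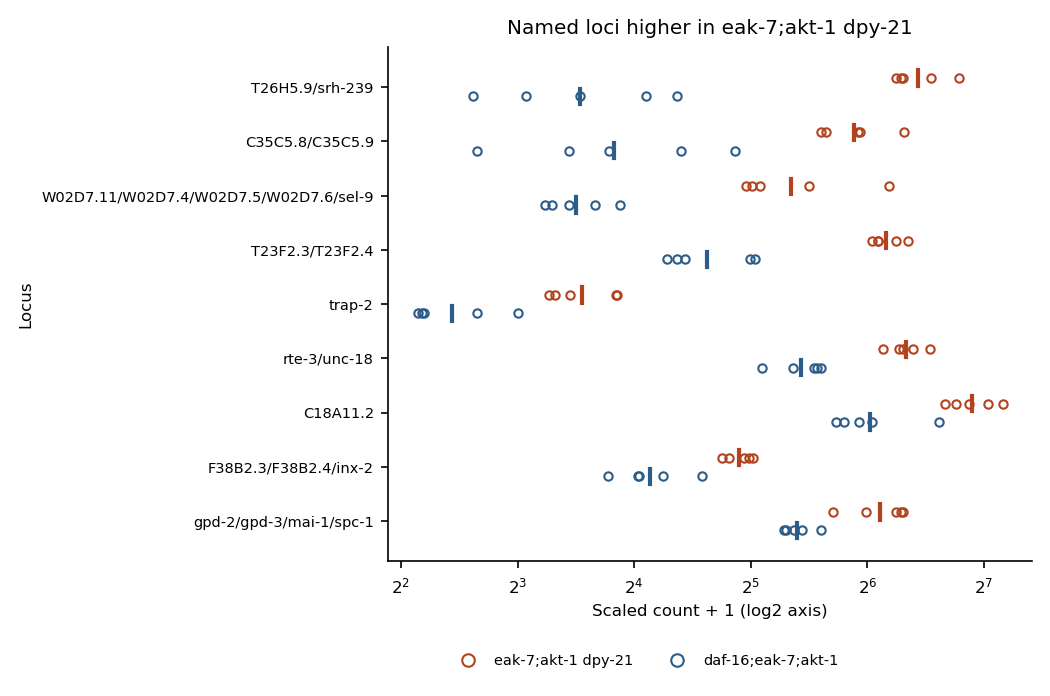
Scaled count + 1 (horizontal log2 axis) in each library at the named loci higher in eak-7;akt-1 dpy-21 (rows), with open points for libraries, eak-7;akt-1 dpy-21 above daf-16;eak-7;akt-1 in each row, and bars for means on the log scale. The strains do not overlap at any of these 9 loci.

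The named loci that fell in the dpy-21 strain are given next. Y48G8AL.12/Y48G8AL.16 on chromosome I (I:1218427-1219002 and I:1214964-1217345, both protein-coding) had 39.6, 25.1, 14.7, 13.5 and 26.1 scaled counts in the dpy-21 strain against 67.4, 77.4, 82.0, 153 and 96.0 in the daf-16 strain. Every dpy-21 library was below every daf-16 library. The log2 fold change was -1.997 (SE 0.32, limma adjusted p = 0.012), and the call held with each library left out. The locus of lin-46 (V:12968855-12970730), which acts in the heterochronic pathway that times larval cell fates, with R186.7 beside it, had 2.201, 0.87, 2.46, 1.23 and 4.02 scaled counts in the dpy-21 strain and 8.42, 14.8, 6.84, 11.7 and 12.3 in the daf-16 strain. These were low levels, and the groups did not overlap. In limma the log2 fold change was -1.95 (SE 0.34, adjusted p = 0.014), and this call too held with each library left out. It was lost in the larger library group (adjusted p = 0.0678) and in the fit of all 26 libraries of that group (adjusted p = 0.0561).

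msra-1 (II:7363220-7364040), which repairs oxidized methionine, shares a locus with F43E2.6 and F43E2.11. This locus had 16.5, 15.6, 16.4, 19.6 and 17.4 scaled counts in the dpy-21 strain against 49.1, 47.7, 31.6, 44.0 and 58.1 in the daf-16 strain. The dpy-21 libraries were tightly grouped and all below the daf-16 libraries, with a log2 fold change of -1.36 (SE 0.19, limma adjusted p = 0.00583). far-2 (III:9081828-9082511), for a secreted fatty acid- and retinol-binding protein, had 13.2, 17.3, 11.5, 24.5 and 16.1 scaled counts in the dpy-21 strain against 47.7, 31.8, 49.6, 64.7 and 62.5 in the daf-16 strain. Again no libraries overlapped, and the log2 fold change was -1.58 (SE 0.25, limma adjusted p = 0.012). Both calls held with each library left out.

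Small secreted peptides of the fungus-induced family fell at fip-1 and fipr-10. fipr-10 (V:9914163-9914529) had 7.70, 9.52, 7.37, 8.58 and 11.4 scaled counts in the dpy-21 strain and 23.9, 30.7, 18.8, 53.9 and 25.5 in the daf-16 strain, without overlap. Its log2 fold change was -1.59 (SE 0.28, limma adjusted p = 0.014), and the call held with each library left out but not in the larger library group (adjusted p = 0.0557) or the fit of its 26 libraries (adjusted p = 0.0820). The locus of fip-1 (III:8639745-8640093) with the tRNA gene F22B7.t1 had 25.3, 11.3, 13.1, 12.3 and 18.7 scaled counts in the dpy-21 strain against 81.4, 67.9, 61.5, 23.4 and 111 in the daf-16 strain. Replicate 9 of the daf-16 strain, at 23.4, lay below replicate 6 of the dpy-21 strain, so the groups overlapped (log2 fold change -1.93, SE 0.39, limma adjusted p = 0.0221, exact permutation p = 0.0159). The call on fip-1 was lost without any 1 of replicates 7, 8 and 9 of the dpy-21 strain and replicates 7 and 8 of the daf-16 strain, with an adjusted p of up to 0.0626.

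dct-16 (V:20497924-20499057), named as a gene under DAF-16 control, was lower in the strain that keeps the daf-16 gene. It had 69.3, 103, 84.4, 55.1 and 122 scaled counts in the dpy-21 strain against 135, 279.9, 226, 271 and 215 in the daf-16 strain, and the groups did not overlap. The log2 fold change was -1.38 (SE 0.25, limma adjusted p = 0.0165), with an adjusted p of up to 0.0517 without replicate 8 of the dpy-21 strain or replicate 9 of the daf-16 strain. mtl-2 (V:14018270-14018673), a metallothionein of the intestine and known target of DAF-16, had 86.9, 97.8, 50.8, 67.4 and 64.3 scaled counts in the dpy-21 strain and 136, 146, 122, 140.2 and 114 in the daf-16 strain. All dpy-21 libraries were lower, by a log2 fold change of -0.87 (SE 0.18, limma adjusted p = 0.0255). The call on mtl-2 held without replicates 6 and 7 of the dpy-21 strain and replicates 6 and 10 of the daf-16 strain and was lost without each of the other 6 libraries, with an adjusted p of up to 0.0707. It was also lost with median-of-ratios rescaling (adjusted p = 0.0776), with TMM rescaling (0.0833), in edgeR (0.141) and in DESeq2 (0.0792).

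nlp-34 (V:3978825-3979134), which encodes a neuropeptide-like protein, was the most abundant called locus, with 134 to 220.1 scaled counts in the dpy-21 strain and 244 to 593 in the daf-16 strain. These ranges did not overlap (log2 fold change -1.04, SE 0.24, limma adjusted p = 0.0346), but the call held only without replicate 6 of the dpy-21 strain or replicate 7 of the daf-16 strain when 1 library was left out, with an adjusted p of up to 0.0945 otherwise. The cuticle collagen gene col-73 (II:4872098-4873129) had at most 3 fragments in each dpy-21 library, against 6.84 to 8.99 scaled counts in the daf-16 strain, and was at least 2.66-fold lower against that floor per library. Its log2 fold change of -2.14 (SE 0.44, limma adjusted p = 0.0251) lost its call without replicates 7 and 8 of either strain or replicate 9 of the daf-16 strain, with an adjusted p of up to 0.0697. T01B7.13/T01B7.5 had 2.201 to 4.02 scaled counts in the dpy-21 strain against 7.02 to 25.2 in the daf-16 strain, without overlap (limma adjusted p = 0.0171, and up to 0.0517 without replicate 8 of either strain, where the call was lost). H23N18.5/H23N18.6 had 13.9 to 33.0 scaled counts in the dpy-21 strain against 35.1 to 132 in the daf-16 strain, also without overlap (limma adjusted p = 0.0251). The call on H23N18.5/H23N18.6 held only without replicate 6 of the dpy-21 strain or replicates 6 and 7 of the daf-16 strain, with an adjusted p of up to 0.0655 otherwise and 0.0959 in the fit of all 35 libraries.

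The locus of acdh-1 (I:6497436-6499560), for an acyl-CoA dehydrogenase, with C55B7.3 and uri-1, had 4.90 to 8.80 scaled counts in the dpy-21 strain against 8.42 to 24.7 in the daf-16 strain. Only replicate 6 of the daf-16 strain lay within the dpy-21 range (limma adjusted p = 0.0298). The locus of dao-2 (II:4562950-4563461), named for its expression in dauer larvae and aging adults, with M03A1.8, had 0 to 3.35 scaled counts in the dpy-21 strain against 2.81 to 8.48 in the daf-16 strain (limma adjusted p = 0.0457). Again replicate 6 was the 1 daf-16 library within the dpy-21 range. With 1 library left out, both calls held without replicate 6 of the daf-16 strain, that on acdh-1 also without replicate 6 of the dpy-21 strain and that on dao-2 also without replicate 10 of the dpy-21 strain. The adjusted p otherwise reached 0.0837 for acdh-1 and 0.111 for dao-2, and it was 0.0517 for dao-2 with TMM rescaling, 0.0778 in edgeR and 0.0645 in DESeq2.

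**Figure D4:**
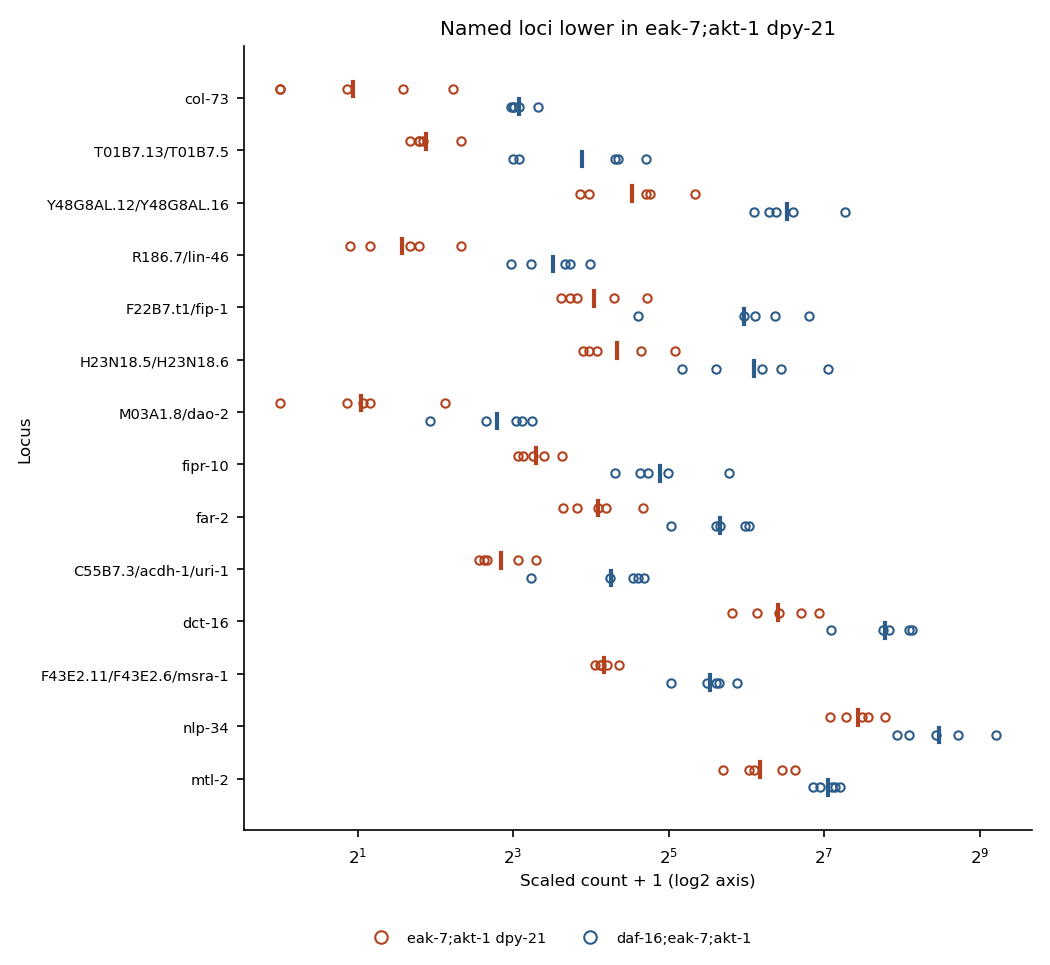
Scaled count + 1 (horizontal log2 axis) in each library at the named loci that fell in eak-7;akt-1 dpy-21 (rows), with open points for libraries, eak-7;akt-1 dpy-21 above daf-16;eak-7;akt-1 in each row, and bars for means on the log scale. The strains overlap at fip-1, dao-2 and acdh-1 among these 14 loci.

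Gene groups were described by their counts and medians beside the median of -0.24 over autosomal loci and the 3.63% of tested loci that were called. Rescaling by median of ratios moved the autosomal median to -0.08, and medians of most groups moved with it. Of 8 tested loci of known DAF-16 targets, mtl-2 and dao-2 were lower and the gpd-2 locus was higher, and the median was -0.26. mtl-1, another metallothionein, was not called, at 0 to 28.6 scaled counts in the dpy-21 strain and 0 to 5.62 in the daf-16 strain (limma adjusted p = 0.95). Of 5 tested loci of insulin-like peptides none was called, with a median of -0.21, and daf-28, an insulin-like ligand that opposes dauer arrest, ranged from 0 to 58.9 scaled counts in the dpy-21 strain and from 17.1 to 49.1 in the daf-16 strain (limma adjusted p = 0.94).

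Lipid-binding and acyl-CoA genes held 11 tested loci, all with a log2 fold change below 0 (9 of 11 with median-of-ratios rescaling) and a median of -0.47, and far-2 and acdh-1 were called. far-1, the neighbour of far-2, had means of 89.3 scaled counts in the dpy-21 strain and 139 in the daf-16 strain (limma adjusted p = 0.0664). The summed level of the 11 loci was 569 to 777 scaled counts in the dpy-21 strain and 909 to 996 in the daf-16 strain, without overlap. Cuticle collagens, which are made in bursts around each moult, had 13 tested loci with a median of -0.82, of which 11 were below 0 (11 also with median-of-ratios rescaling) and only col-73 was called. dpy-5, a cuticle collagen gene, had means of 17.95 scaled counts in the dpy-21 strain and 48.1 in the daf-16 strain (limma adjusted p = 0.0732).

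Innate defence genes held 27 tested loci with a median of -0.17, of which fip-1 and fipr-10 were called lower and none higher, while cnc-10, a caenacin peptide gene, had means of 601 scaled counts in the dpy-21 strain and 428 in the daf-16 strain (limma adjusted p = 0.0802). With median-of-ratios rescaling cnc-10 and spp-14 were called higher as well. Neuropeptide-like proteins had 12 tested loci with a median of -0.33 and nlp-34 as their 1 call. Redox and glutathione genes had 9 tested loci with a median of -0.22 and the msra-1 locus as their 1 call. Of 45 tested loci of large and 29 of small ribosomal subunit proteins none was called, with a median of -0.20 for both, close to the autosomal median, and of -0.03 for both with median-of-ratios rescaling. None of 16 loci of ubiquitin-like and proteasome genes (median -0.34), 3 of histones (-0.87), 4 of transthyretin-like proteins (-0.13), 2 of hedgehog-related genes (-0.36) and 3 of the mitochondrial genome (-0.12, or 0.05 with median-of-ratios rescaling) was called. The nuclear respiratory chain list had 18 tested loci with a median of -0.25, and its 1 call was the gpd-2 locus, through mai-1. No locus of FMRFamide-like peptides was tested.

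Among tissue markers, 12 loci of the intestinal list were tested, with a median of -0.13 (0.01 with median-of-ratios rescaling), and the 2 called were far-2 and mtl-2, while the defining markers asp-1, vha-6, ifb-2 and act-5 had log2 fold changes of -0.24, 0.05, 0.23 and -0.08. The summed level of the 12 loci was 199 to 633 scaled counts in the dpy-21 strain and 294 to 639 in the daf-16 strain. The 3 tested loci of the body wall muscle list, those of tnt-2, mlc-2 and unc-27, were all X-linked and none was called, with log2 fold changes of 0.45, 0.55 and 0.69 (tnt-2 was called higher with median-of-ratios rescaling). Their summed level was 63.2 to 85.8 scaled counts in the dpy-21 strain and 44.9 to 59.8 in the daf-16 strain, without overlap, and the part of muscle content in the X-linked result was not tested. Tested loci of pharynx (7), neurons (2) and hypodermis (3) had medians of 0.03, -0.13 and -0.49 with no call, and no germline or sperm locus was tested.

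Unnamed loci made up 11 of the 40 calls. Of these, 7 stood among the 21 tested unnamed loci listed after the last X-linked locus of the table. Of the 7, 6 were higher and 1 was lower (XLOC_037528, log2 fold change -0.80). The share called was 33.3%, beside 3.63% of all tested loci. In this set 18 of 21 log2 fold changes were above 0, beside 36.8% of all tested loci, and the median was 0.95. This set was noticed after values were seen, and no source used here gives it a chromosome. The summed level of the 21 loci was 264 to 328 scaled counts in the dpy-21 strain and 166 to 232 in the daf-16 strain. XLOC_037544 in this set had 37.4, 33.8, 41.0, 38.0 and 34.8 scaled counts in the dpy-21 strain against 26.7, 10.6, 11.96, 8.09 and 6.16 in the daf-16 strain (log2 fold change 1.63, SE 0.32, limma adjusted p = 0.0212). Outside it, XLOC_007580 had the largest fall of the comparison, with 0, 6.93, 2.46, 9.80 and 3.35 scaled counts in the dpy-21 strain against 22.5, 35.0, 35.0, 56.6 and 21.1 in the daf-16 strain (log2 fold change -2.98, SE 0.58, limma adjusted p = 0.0212). Neither locus showed overlap of the strains, and each kept its call in 5 of the 10 fits that left out 1 library.

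Libraries of wild type and eak-7;akt-1, which entered the filter for tested loci but not the fit, were set beside the 2 strains as a description. F45D11.14, counted among the higher loci, reached at most 3.68 scaled counts in the 10 libraries compared. It was tested only through other genotypes, with a mean of 19.7 in eak-7;akt-1. On the log2 scale the wild type mean was nearer to the daf-16 strain than to the dpy-21 strain at 16 of the 21 higher and 16 of the 19 lower loci, beside 637 (57.9%) of all tested loci. The eak-7;akt-1 mean was nearer to the dpy-21 strain at 13 of the 21 higher and 10 of the 19 lower loci, beside 540 (49.0%) of all tested loci. At Y48G8AL.12/Y48G8AL.16 the means were 23.8 ± 10.6 scaled counts in the dpy-21 strain, 95.1 ± 33.8 in the daf-16 strain, 2.52 ± 1.68 in the eak-7;akt-1 parent and 131 ± 10.7 in wild type (SD, n = 5 each). Of these 4 genotypes the eak-7;akt-1 parent was lowest and wild type highest, while eak-7;akt-1;daf-12 had 181 ± 27.5. lin-46 had 2.15 ± 1.23 scaled counts in the dpy-21 strain and 10.8 ± 3.19 in the daf-16 strain, beside 0.86 ± 1.28 in the eak-7;akt-1 parent and 10.8 ± 3.25 in wild type.

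At other loci the mean of the dpy-21 strain was the lowest or highest of the 4 genotypes. dct-16 had a mean of 86.7 ± 26.5 scaled counts in the dpy-21 strain, and of 225 ± 57.9 in the daf-16 strain, 334 ± 58.5 in the eak-7;akt-1 parent and 199 ± 42.0 in wild type. fip-1 was likewise lowest in the dpy-21 strain, with 16.1 ± 5.90 scaled counts beside 69.0 ± 31.8 in the daf-16 strain, 138 ± 42.6 in the eak-7;akt-1 parent and 46.5 ± 27.4 in wild type. T26H5.9/srh-239 was highest there, with 86.3 ± 14.5 scaled counts beside 11.8 ± 6.04 in the daf-16 strain, 23.2 ± 11.8 in the eak-7;akt-1 parent and 32.5 ± 13.6 in wild type. The set-4 strains had intermediate means there, at 42.3 ± 27.2 for set-4(n4600) and 43.7 ± 28.6 for set-4(dp268). T23F2.3/T23F2.4 on the X had 70.8 ± 6.49 scaled counts in the dpy-21 strain, 24.3 ± 6.49 in the daf-16 strain, 42.6 ± 5.71 in the eak-7;akt-1 parent and 21.03 ± 3.89 in wild type, so that the parent lay between the 2 strains, as did set-4(n4600) at 37.7 ± 8.13 and set-4(dp268) at 51.4 ± 11.02.

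**Figure D5:**
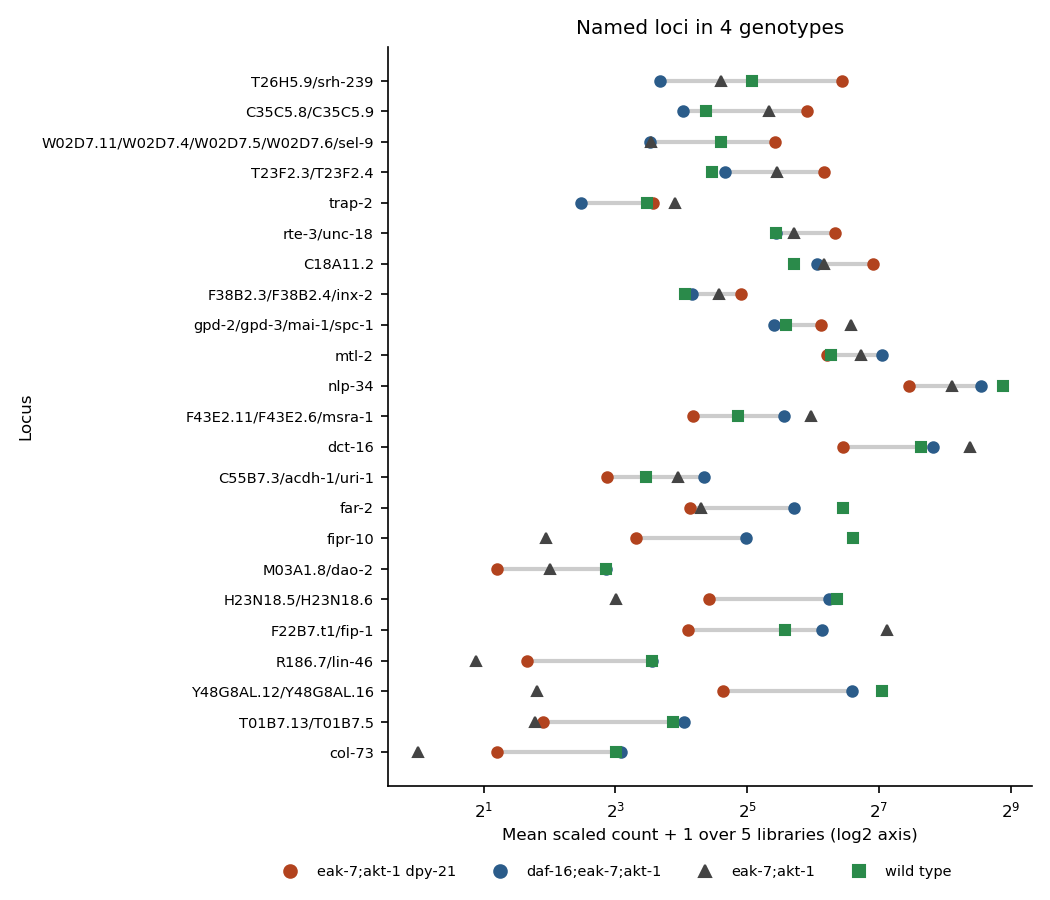
Mean scaled count + 1 over 5 libraries (horizontal log2 axis) of eak-7;akt-1 dpy-21, daf-16;eak-7;akt-1, the parent eak-7;akt-1 and wild type at the 23 named loci (rows, from the largest rise to the largest fall), with a grey line joining the 2 strains compared. Wild type lies near daf-16;eak-7;akt-1 at lin-46 and col-73, while dct-16 and fip-1 are lowest in eak-7;akt-1 dpy-21.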

How the data were processed

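RNA was poly(A)-selected from 100 ng of total RNA per sample and sequenced as paired ends. The submitters' processing notes name TopHat2 2.0.9, Bowtie2 2.1.0, Cufflinks and Cuffdiff 2.1.1 and build WBcel235, while the methods name another Cuffdiff version and a UCSC ce10 transcriptome with de novo assembly. The authors deposited a signal per locus and library, a fragment count divided by a size factor of the library. In each library 100% of values were whole multiples of 1 step (within 0.1 of a fragment), from which fragments were recovered. As no molecular identifiers mark the fragments, the floor used here reflects counting error alone. The counting is not stated to use strand, so reads of overlapping or antisense genes cannot be told apart, and reads were not analysed here.

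Loci that reached 5 scaled counts in 5 or more libraries were tested with limma 3.58.1 (R 4.3.3) with a mean-variance trend. The fit took log2(scaled count + 1) of the 10 libraries, without a replicate block. A locus was called when it changed 1.5-fold or more with an adjusted p-value under 0.05. The thresholds are those of the methods. Single loci were also tested by exact permutation over libraries in Python 3.11.15 (scipy 1.17.1, pandas 2.3.3, numpy 2.4.6). The floor for a fold was 3 fragments per library, applied where no library of a strain had more. edgeR 4.0.16 and DESeq2 1.42.0 were run on recovered fragments as alternatives (46 and 54 calls), beside other pseudocounts, filters, scalings, fold changes, library sets and a block. The test was tried on simulated data first. Chromosomes and positions were looked up by gene name in the annotation of WBcel235, since the deposited table holds no coordinates, and for 8 tested loci from the order of the table, which gave the same chromosome as the name for 99.97% of loci placed by name. No sequence is shown.

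Groups and replicate numbers 6 to 10 came from sample titles. The study calls the replicates experimental and, in a caption, biological samples, each of its own progeny, while the labels do not describe them further, so p-values measure the spread between these samples. Named loci were the 8 largest rises and falls among called loci with a gene name, a mean of at least 10 scaled counts in the higher strain and an unmixed direction over the 5 pairs of equal number, up to 5 X-linked called loci by p in each direction, up to 3 called loci per gene list and direction, and the mutated genes with ins-9. ins-9 shares a locus with ubc-22 that had at most 3 fragments in any library, so no fold is given. Members and lists were chosen with earlier results of these data known.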

Additional observations from a re-analysis of the deposited data

Results flagged for a closer look

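At 3 of 48 groups of 5 values examined, 1 library lay far from the other 4, and chance flags about 1 in 20 such groups. C18A11.2 had 96.9 scaled counts in replicate 6 of daf-16;eak-7;akt-1, beside 51.9 to 64.7 in the other 4, and without that library its log2 fold change was 1.02 (limma adjusted p = 0.00534). T01B7.13/T01B7.5 had 4.02 scaled counts in replicate 10 of eak-7;akt-1 dpy-21, beside 2.201 to 2.60 in the other 4, and without it the log2 fold change was -2.11 (limma adjusted p = 0.0294). col-73 had 8.99 scaled counts in replicate 9 of daf-16;eak-7;akt-1, beside 6.84 to 7.42 in the other 4, and without it the log2 fold change was -2.08 and the call was lost (limma adjusted p = 0.0697).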

How the results depend on the processing

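All 40 called loci kept their direction under each alternative in which they were tested, while the number that passed the thresholds moved. The kept direction was nearly fixed in advance, since these loci were called for a difference in the same libraries. The fit of all 35 libraries called 68 loci, 39 of them lower, and 13 on the X, of which 2 were lower. X-linked calls also included 2 lower of 6 with no filter, 2 of 11 without replicate number 6, 1 of 2 without replicate number 8 and 1 of 5 without replicate 6 of the dpy-21 strain. Median-of-ratios rescaling called 36 higher loci and 16 on the X, TMM rescaling 33 and 15, edgeR 32 and 17, and DESeq2 35 and 18. The larger library group alone called 23 loci, 9 higher, and 5 on the X, and with the spread over its 26 libraries, an alternative chosen after seeing the data, 32 lower loci were called. A fold change of at least 2 left 4 X-linked loci. With 1 library or 1 replicate number left out, the calls ranged from 4 to 58 in all, from 3 to 25 higher, from 1 to 33 lower and from 1 to 11 on the X. The X-linked minus autosomal difference ranged from 0.48 to 0.59 with 1 library left out. With the replicate number as a block 1 locus was called, higher and not on the X, with 0 lower and 0 on the X, and 185 loci had an unadjusted p below 0.05. The call on T26H5.9/srh-239 held there, and the other named loci had an adjusted p of 0.0584 or more. Same-numbered libraries of the strains correlated between -0.61 and 0.38, above 0.1 in 2 of 5 pairs, and 1 eak-7;akt-1 dpy-21 library correlated best with its own number. Replicates 6 and 9 of eak-7;akt-1 dpy-21 correlated best with replicate 10 of daf-16;eak-7;akt-1, at 0.62 and 0.70. These libraries are all in the smaller library group, so the correlations cannot show whether equal numbers were handled together. The numbers were not taken to pair the samples. Depth limits all calls at loci of few fragments, where absence of a call does not show absence of a difference.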
